A study of Mus musculus with 4 samples.

Results

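Open chromatin in the quadriceps (Quad) was compared with open chromatin in the soleus (Sol) of the mouse, using the 20000 peaks with the highest Peak Score in each muscle. These 40000 peaks were taken from the 69121 peaks of both lists, 40337 in Quad and 28784 in Sol, and from 120839 peaks in the 4 muscles of the whole series. Accessible DNA was mapped by ATAC-seq, a method that tags open chromatin with adapters through the transposase Tn5. Both muscles came from wild type, sedentary C57BL/6 mice, with no transgene or treatment in either group. The mice were male by the study's methods, and their age at collection was not given in the sources used here. The muscles were frozen and pulverised whole, so nuclei of every cell type in the tissue were present, and fewer cells of a type cannot be told apart from less open chromatin in each cell. The labels call each library pooled, and the number of animals behind a list is not known. With 1 list per muscle there were no replicates, no p-value was computed, and every difference below describes these libraries.

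Skeletal muscle is built from fibres that differ in contractile proteins and fuel use. Fast glycolytic fibres, which dominate the Quad, use fast myosin, the SERCA1 calcium pump and glycogen, whereas slow oxidative fibres, abundant in the Sol, use slow myosin, SERCA2, fatty acids and many mitochondria. Each fibre type keeps its own set of promoters and enhancers open, which are bound by factors such as MEF2, the E-box binding myogenic factors, TEAD and the calcium-dependent NFAT proteins.

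Most listed genes of fast or slow contraction that had a peak had more peaks in the muscle whose fibres use them. These lists were chosen with earlier results of these data known. Among genes of fast contraction, 10 had more peaks in Quad and 1 had more in Sol, while among genes of slow contraction 12 had more peaks in Sol and 2 had more in Quad. In other lists, collagen and matrix genes had more peaks in Quad (77 against 51). Shared regions of Z-disc, ion channel and endothelial genes had medians of −9.31, −7.63 and −7.41 percentile points, Quad minus Sol. All shared regions outside promoters had a median of −2.65. Genes of oxidative phosphorylation differed little between the lists (30 peaks in Quad and 32 in Sol).

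Some regions open in 1 muscle or ranked higher there are printed here so that their sequence can be read beside their values. They were picked after their values were seen, from fast and slow muscle genes and, for Nctc1, as the highest Quad peak apart from every Sol peak. All are given 5′ to 3′ on the forward strand of GRCm38.p6, the assembly behind mm10, and capitals mark matches, on either strand, to CAGCTG (an E-box), CATTCC (TEAD), TGGAAA (NFAT), AAGGTCA (a nuclear receptor monomer site) or the MEF2 motif. The first 3 regions are Quad peaks. They are an intergenic peak beside 2310065F04Rik at chr11:67139555-67139743, an intron peak of Nctc1 at chr7:142553126-142553314, and the Myh4 promoter from the start of its peak to the base before exon 1, chr11:67237676-67237811. The other 3 are Sol peaks, at the Lmod2 promoter up to the base before exon 1, chr6:24597628-24597770, in intron 1 of Actn2 at chr13:12337887-12338093, and at the Myl3 promoter, chr9:110763440-110763646.
2310065F04Rik, intergenic: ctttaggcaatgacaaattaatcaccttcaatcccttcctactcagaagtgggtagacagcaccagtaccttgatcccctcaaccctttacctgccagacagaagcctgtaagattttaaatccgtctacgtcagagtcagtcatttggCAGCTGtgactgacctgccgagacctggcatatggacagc
Nctc1, intron 2: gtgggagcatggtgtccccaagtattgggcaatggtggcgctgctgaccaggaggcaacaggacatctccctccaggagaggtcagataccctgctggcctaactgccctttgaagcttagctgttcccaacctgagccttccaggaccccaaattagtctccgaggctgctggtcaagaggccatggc
Myh4, promoter: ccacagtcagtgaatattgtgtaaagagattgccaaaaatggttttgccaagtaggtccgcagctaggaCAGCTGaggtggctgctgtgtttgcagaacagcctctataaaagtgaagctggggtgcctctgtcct
Lmod2, promoter: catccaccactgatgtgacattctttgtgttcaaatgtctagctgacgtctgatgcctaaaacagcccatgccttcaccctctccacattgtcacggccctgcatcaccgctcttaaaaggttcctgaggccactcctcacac
Actn2, intron 1: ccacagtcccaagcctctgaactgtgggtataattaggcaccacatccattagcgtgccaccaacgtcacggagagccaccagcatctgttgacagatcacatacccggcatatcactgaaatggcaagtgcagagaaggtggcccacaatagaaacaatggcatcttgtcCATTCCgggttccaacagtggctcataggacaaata
Myl3, promoter: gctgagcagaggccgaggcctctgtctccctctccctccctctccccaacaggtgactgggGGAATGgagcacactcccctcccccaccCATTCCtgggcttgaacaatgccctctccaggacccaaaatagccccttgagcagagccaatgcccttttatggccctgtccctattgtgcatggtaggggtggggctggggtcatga

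The Myh4 promoter and the 2310065F04Rik region each held 1 E-box, the Actn2 region held 1 TEAD match, and the Myl3 promoter held 2 TEAD matches on opposite strands. No match to the 5 motifs fell in the printed Nctc1 and Lmod2 sequences. These matches are common: windows of 200 bp about the peak centre held CAGCTG in 19.0% of Quad and 19.2% of Sol peaks and CATTCC in 10.01% and 10.8%, respectively.

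Most open regions were common to both muscles. Of the 20000 Quad peaks, 14240 (71.2%, 95% Wilson interval 70.6% to 71.8%, counting error only) overlapped a Sol peak by 1 bp or more, and the same number of Sol peaks overlapped a Quad peak. Sharing varied with where a peak lay. At promoters, 86.3% of Quad peaks and 89.2% of Sol peaks were shared, compared with 56.8% and 57.0% in introns and 62.9% and 57.8% between genes. It also varied with rank, from 97.4% of the 2000 highest Quad peaks to 38.4% of the 2000 lowest, and from 97.9% to 30.6% in Sol.

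The 5760 unshared peaks of each list had a different standing in the other muscle. Of those in Quad, 1030 met a Sol peak ranked below the 20000 and 4730 met none, whereas of those in Sol 2926 met a lower-ranked Quad peak and 2834 met none. The 20000 peaks made up 49.6% of the Quad list and 69.5% of the Sol list, so a Sol peak had more Quad peaks below the limit to meet. If scores are scaled to 10 M tags (M, mega), as HOMER does by default, the lists came from about 78.1 M tags in Quad and 105 M in Sol, and the lowest peak kept held 52 and 58 tags.

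**Figure D1:**
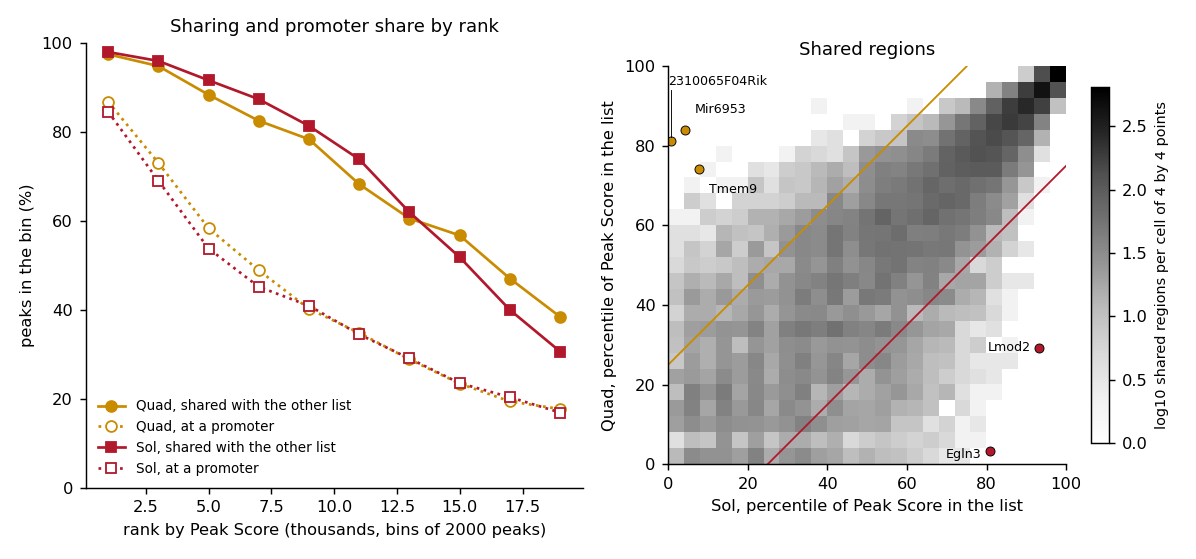
Left, percent of peaks shared with the other list (filled) or at a promoter (open) against rank by Peak Score in bins of 2000 peaks, for Quad (circles) and Sol (squares); sharing declined from 97.4% to 38.4% in Quad and from 97.9% to 30.6% in Sol. Right, number of shared regions (log10 grey scale, cells of 4 by 4 points) by percentile of Peak Score in Sol (horizontal) and Quad (vertical), with lines at 25 points towards Quad (ochre) and Sol (red) and 5 named regions as dots.

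At the 14240 shared regions, scores were compared as percentiles within each 20000, where 100 is the highest score. Ranks were similar across the genome, with Spearman's rho of 0.823 across these regions, which share libraries and base composition and are not replicates. The median difference, Quad minus Sol, was −0.27 points (quartiles −9.44 and 7.40), and 55.4% of regions lay within 10 points. A region was called when it differed by 25 points or more. This held for 908 regions on the Quad side (6.38%) and 1332 on the Sol side (9.35%), and in 208 and 340 of them the 95% exact Poisson intervals of the inferred tags, expressed as percentiles, did not overlap. These intervals, also given with single regions below, cover counting error only. When percentiles were taken within the whole lists, the split turned to 1162 regions on the Quad side and 38 on the Sol side, because the 20000 are a smaller part of the Quad list.

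Promoters and distal regions differed in their balance. Outside promoters, 583 of 6794 shared regions (8.58%) were called towards Quad and 1051 (15.5%) towards Sol, with a median of −2.65 points. At promoters, 325 of 7446 (4.36%) were called towards Quad and 281 (3.77%) towards Sol, with a median of 0.38 points.

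The largest shift towards Quad outside promoters lay 19569 bp upstream of 2310065F04Rik, listed in RefSeq as linc-Myh, a long non-coding RNA gene beside the fast myosin heavy chain genes. This region, whose Quad sequence is printed above, ranked at percentile 81.1 in Quad (Poisson interval 70.1 to 87.9, 123 tags) and at 0.58 in Sol (0 to 27.3, 58 tags). The Sol peak, at 67139668 to 67139874 on chromosome 11, overlapped only in part its Quad counterpart, which ended at 67139743. Next on the Quad side were an intergenic region near Mir6953 (84.1 against 4.09) and one 6261 bp upstream of Ece1, the endothelin converting enzyme (87.6 against 12.7). The others of the 10 were nearest to Taok3, Faap100, Gm46545, Cdc14a, LOC102634389, Frat2 and Gm10432.

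On the Sol side the largest shift outside promoters was assigned to 4933411K16Rik and lies in intron 6 of Hoga1, a mitochondrial aldolase gene (8.24 in Quad and 89.6 in Sol). A region in intron 1 of Ldlrad3 ranked at 5.85 and 79.3, and one upstream of Laptm5 at 5.85 and 76.6. Other regions of the 10 were nearest to 4930452A19Rik, Ptp4a1, Mir8106, Heatr1, Scel and Gm10556. Over the 20 regions, the lower percentile of each pair lay between 0.58 and 16.0.

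Promoters that shifted towards Sol included Egln3, a prolyl hydroxylase that marks HIF proteins for degradation, at 3.34 in Quad (0 to 36.8) and 80.8 in Sol (70.8 to 87.8). The promoter of Lmod2, whose product leiomodin nucleates thin filament actin, had a score of 8.32 in Quad and 19.7 in Sol. Its percentiles were 29.2 (0 to 55.01) and 93.1 (89.2 to 95.7). Gm11264 (3.34 and 73.6), the chloride transporter Clcn3 (5.85 and 68.8), Mfap1a and Syt7 completed the 6. Towards Quad the 6 were the lysosomal membrane protein gene Tmem9 (74.1 and 7.62), Mapk1ip1l, the dual specificity phosphatase gene Dupd1 (64.8 and 7.62), Sdk1, Naa10 and the zinc transporter Slc30a7.

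Peaks were next counted by the nearest gene the authors assigned. A total of 12866 genes had a peak in either list, of which 10364 had peaks in both, 1158 in Quad alone and 1344 in Sol alone. Quad had more peaks at 2958 genes, Sol at 2994, and 6914 genes had equal numbers. A difference of 2 or more peaks was called, which held for 670 genes towards Quad (5.21%) and 657 towards Sol (5.11%). Genes with many peaks had more room to differ. Among genes with 4 or 5 peaks in both lists together, 9.84% were called towards Quad and 9.90% towards Sol, compared with 30.5% and 22.9% among genes with 10 or more. At 6 to 9 peaks the shares were 16.9% and 17.6%. Called counts of the gene lists below are to be read beside these shares.

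The shared regions of the called genes were read for rank as well. Genes called towards Sol held 958 shared regions with a median of −5.05 points, of which 20.9% were called towards Sol and 5.95% towards Quad. Genes called towards Quad held 1092 shared regions with a median of −0.42 points, of which 8.15% were called towards Quad and 11.1% towards Sol. At genes with equal numbers the median over 8195 regions was 0.045 points.

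The 15 genes with the largest excess in Quad held regulators and metabolic enzymes. Maf, a bZIP transcription factor, had 8 peaks in Quad and 2 in Sol, none of them at its promoter. Its peaks lay up to 230632 bp from the start site, and 2 of the 8 were shared. Rxra, the common partner of many nuclear receptors, had 9 and 3 peaks, Lpin1, which encodes a phosphatidic acid phosphatase and coactivator, 9 and 3, and Smox, the spermine oxidase, 9 and 3. Ccdc6 had 7 and 1 peaks, and its promoter peak, at percentile 66.2, met no Sol peak.

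Further genes of this group were Lrrfip1 (12 peaks in Quad and 5 in Sol), the Ras GTPase activating gene Dab2ip (15 and 8), the TEAD cofactor Vgll4 (13 and 7), the apoptosis adaptor Cradd (11 and 5), Zcchc24 (10 and 4) and Mmd (6 and 1). The non-coding genes A330074K22Rik (13 and 6) and 9530091C08Rik (9 and 3) and the predicted gene Gm4861 (6 and 1) also belonged to it. Most Quad peaks assigned to 9530091C08Rik lay inside intron 1 of another gene. At each gene of this group some Quad peaks were shared. In the whole lists each of the 15 also had more Quad peaks, such as 21 and 9 at Maf. The whole Quad list is the longer (40337 peaks against 28784), so this is no separate check.

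Genes with the largest excess in Sol included several of the sarcomere and its links to the membrane. Actn2, the Z-disc alpha-actinin of all fibres, had no peak in the Quad 20000 and 6 in Sol, of which 4 lay in introns and met no Quad peak at any rank. They ranked at 48.1, 74.5, 86.9 and 65.1, the third being the printed region. Fhl2, a LIM domain protein of the sarcomere, had none in the Quad 20000 and 6 in Sol. Its Sol promoter peak, at 53.9, and 3 of the others met a Quad peak below the 20000, and the whole lists held 5 and 7. The adhesion protein gene Tln2 (talin 2) had 2 peaks in Quad and 8 in Sol, and Mlip, which encodes a lamin-interacting muscle protein, had 2 and 9.

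Vgll2, a TEAD cofactor of muscle, had 3 peaks in Quad and 10 in Sol, and the transcription factor Klf4 had 4 and 10. Others of these genes were 2010111I01Rik (6 and 14), Ly86 (5 and 12), Cdh13 (3 and 9), Plpp3 (10 and 16), Gm5820 (1 and 7), Myh10 (1 and 6), Ift81 (0 and 5) and A330102I10Rik (0 and 5). Most Sol peaks assigned to Gm5820 lay inside introns of another gene. In the whole lists, the order turned at Ly86 (22 in Quad and 15 in Sol), Klf4 (22 and 17), Plpp3 (26 and 20), Tln2 (11 and 9) and Gm5820 (10 and 9), where more Quad peaks lay below the 20000. At the others named here Sol still had more, but by less, such as 11 and 12 at Vgll2, 7 and 10 at Mlip, 3 and 6 at Actn2 and 11 and 15 at Cdh13.

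**Figure D2:**
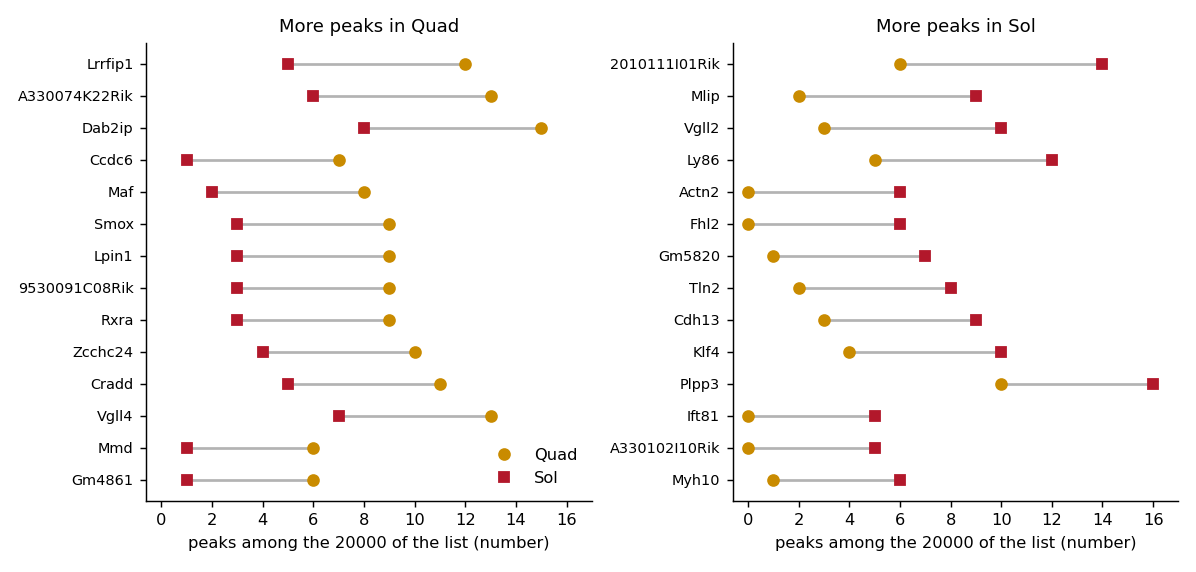
Number of peaks among the 20000 of each list (horizontal axis) for 14 of the 15 genes with the largest difference towards Quad (left) and towards Sol (right), with circles for Quad and squares for Sol; Maf had 8 and 2 peaks and Actn2 0 and 6.

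Fast and slow contractile genes were then counted as lists. Of the 16 genes of fast contraction, 15 had a peak, with 38 peaks in Quad and 20 in Sol. Quad had more at 10, both had equal numbers at 4, and Sol had more at 1 (Tpm1, 3 and 4). There were 6 called towards Quad and 0 towards Sol, against 5.21% and 5.11% of all genes. The 18 shared regions had a median of 3.13 points, with 5 called towards Quad and 0 towards Sol, beside 6.38% and 9.35% of all shared regions.

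Mylk2, the myosin light chain kinase of skeletal muscle, had 6 peaks in Quad and 2 in Sol. Its promoter peak, at 74.6 in Quad, met no Sol peak, while an intron region was shared at 85.03 in Quad and 86.0 in Sol. Pvalb encodes parvalbumin, a calcium buffer of fast fibres, and had 3 and 1 peaks, with the promoter at 68.4 in Quad alone. Actn3, the fast fibre alpha-actinin, had 2 Quad peaks at 67.8 (promoter) and 59.4 and none in Sol at any rank. The fast myosin binding protein gene Mybpc2 likewise had 2 Quad peaks, at 85.03 and 69.1, and none in Sol. Atp2a1, which encodes SERCA1, had a single intergenic Quad peak at 83.5. Myl1 (8 and 5), Casq1 (4 and 2), Tnnc2 (2 and 1), Myh4 (1 and 0) and Myh1 (1 and 0) were the other genes with more in Quad. At Myoz1, peak numbers were equal, but an intron region ranked at 86.5 in Quad (78.7 to 91.6) and 51.1 in Sol (30.2 to 67.3).

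Slow contractile genes showed the opposite count. Of 19, 16 had a peak, with 18 peaks in Quad and 44 in Sol, and 12 had more in Sol, 2 had equal numbers and 2 had more in Quad. There were 1 called towards Quad and 10 towards Sol, against 5.21% and 5.11% of all genes. The 14 shared regions had a median of −5.92 points, with 3 called towards Quad and 5 towards Sol. Of all shared regions, 6.38% and 9.35% were called, and of those outside promoters 8.58% and 15.5%.

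Myl3 and Myl2 encode the light chains of slow myosin. Myl3 had 3 peaks in Sol, at 72.4 (the printed promoter), 75.1 and 68.2, and none in Quad at any rank, and Myl2 had 3 in Sol, at 17.5, 53.9 and 47.1. Myoz2, a Z-disc calcineurin-binding protein of slow fibres, had 4 peaks in Quad and 7 in Sol. Atp2a2, which encodes SERCA2, had 1 and 3, and the slow calsequestrin gene Casq2 had 2 and 4. At Mybpc1, the slow myosin binding protein gene, 3 and 5 peaks were found and the promoter ranked at 35.9 in Quad (4.64 to 58.9) and 76.1 in Sol (64.0 to 84.7). Tnni1, the slow troponin I gene, had a single Sol peak at 66.9. Csrp3, Myh7 and Myh7b each had 2 Sol peaks and none in Quad at any rank. Ankrd2 (4 and 2) and Pln (1 and 0), which encodes phospholamban, had more in Quad.

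**Figure D3:**
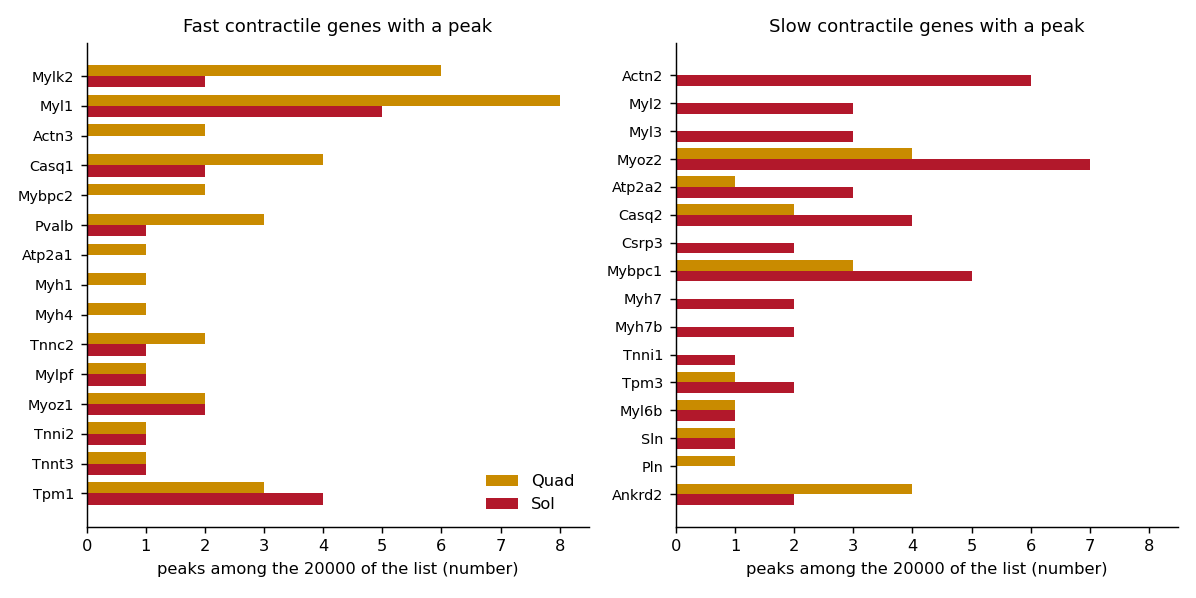
Peaks among the 20000 of each list (bars, number) at fast (left) and slow (right) contractile genes with a peak, ochre for Quad and red for Sol; 10 of 15 fast genes had more in Quad and 12 of 16 slow genes had more in Sol.

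The myosin heavy chain genes themselves were followed along their loci. Within 50 kb of the fast cluster on chromosome 11, which holds Myh3, Myh2, Myh1, Myh4, Myh8 and Myh13, the whole Quad list had 14 peaks, 11 of them in the 20000, and the Sol list had 9 and 7. Much of the open chromatin lay at 2310065F04Rik rather than in the myosin genes. Its intron 3 ranked at 91.4 in Quad and 88.9 in Sol, and its promoter at 85.3 and 79.3. An intron 2 peak at 84.1 was found in Quad only. Beside 2310065F04Rik, intergenic regions shared by both lists ranked at 62.3 and 81.1 in Quad and at 33.3 and 0.58 in Sol. A further Quad peak, at 58.4, and the Sol peak next to it, at 26.6, did not overlap. Among the myosin genes, the Myh4 promoter (52.3) and intron 9 of Myh1 (41.9) had a peak in Quad only. At Myh2, the fast oxidative isoform, both lists held an intergenic peak 17614 bp and 17606 bp upstream that ranked below the 20000. Also below the 20000 were a Quad peak 7200 bp upstream of Myh2 and a Sol peak in exon 30 of Myh4.

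At the other locus, with the cardiac Myh6 and the slow Myh7 on chromosome 14, Sol had 2 peaks upstream of Myh7, at 38.1 and 28.0, and Quad had none at any rank. The neighbouring Ngdn promoter ranked at 98.4 in Quad and 97.3 in Sol.

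**Figure D4:**
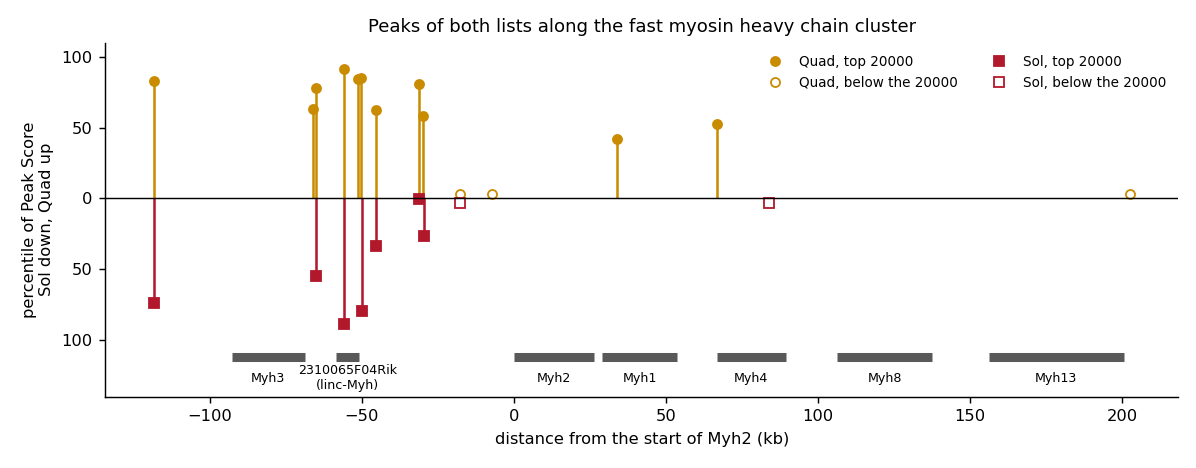
Percentile of Peak Score of each peak along the fast myosin heavy chain cluster against distance from the start of Myh2 (kb), with Quad upwards (circles) and Sol downwards (squares), open symbols for peaks below the 20000, and grey bars for genes. Shared intergenic regions beside 2310065F04Rik ranked at 62.3 and 81.1 in Quad and 33.3 and 0.58 in Sol. Adjacent peaks at 58.4 in Quad and 26.6 in Sol did not overlap.

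Z-disc and sarcomere scaffold genes had 79 peaks in Quad and 85 in Sol, with 7 of 25 genes higher in Quad and 9 in Sol. Called were 2 and 5, beside 16.9% and 17.6% of genes with 6 to 9 peaks in both lists together. Their 54 shared regions had a median of −9.31 points, compared with −0.27 over all regions and −2.65 outside promoters, with 3 called towards Quad and 11 towards Sol, near the 8.58% and 15.5% outside promoters. The titin-binding myomesin gene Myom3 (2 in Quad and 5 in Sol), Pdlim5 (4 and 8) and Synpo2 (2 and 5) had more in Sol. Tmod1, the tropomodulin that caps thin filaments (4 and 0), and Myom2, the myomesin of fast fibres (6 and 3), had more in Quad. Ttn, the giant elastic filament titin, had 6 peaks in both, and a region assigned to it far upstream, inside an intron of another gene and picked after its values were seen, ranked at 10.6 in Quad (0 to 41.3) and 73.6 in Sol (61.0 to 83.2).

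Genes of calcium release and excitation coupling had 77 peaks in Quad and 63 in Sol, with 12 of 19 genes higher in Quad and 2 in Sol, and 6 and 2 called. Of all genes with 6 to 9 peaks in both lists together, 16.9% and 17.6% were called. Camk2b, a calmodulin-dependent kinase gene, had 4 peaks in Quad and 7 in Sol. Peak number and rank differed in sign here, since the 51 shared regions had a median of −5.39 points. Ion channel and pump genes were divided, with 11 higher in Quad and 9 in Sol and 4 and 6 called. The potassium channel gene Kcnc4 had 4 peaks in Quad and 1 in Sol.

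Fuel genes were compared next. Of 18 glycolytic genes with a peak, 10 had more in Quad and 1 in Sol (Ldhb, 0 and 2), with 47 and 37 peaks, but only 1 was called on each side. Hk2, which encodes hexokinase 2, had 5 and 2, and Eno3, the muscle enolase gene, had a promoter peak at 74.1 in Quad only. The 29 shared regions had a median of 3.45 points. The promoters of Ldha, the lactate dehydrogenase subunit of glycolytic muscle (83.2 in Quad, 73.8 to 89.5, and 48.1 in Sol, 27.3 to 65.4), and Gpd1 (68.4, 51.7 to 80.2, and 26.6, 1.16 to 48.6), both picked after their values were seen, were among the 3 called towards Quad. Glycogen genes were mixed, with 6 of 17 higher in Quad and 9 in Sol and 4 and 2 called, beside 9.84% and 9.90% of all genes with 4 or 5 peaks. The phosphorylase kinase gene Phkg1 had 3 and 0 peaks, and Gbe1, the branching enzyme, had 3 and 5.

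Oxidative genes were mostly even. In oxidative phosphorylation, 19 of 25 genes had equal numbers and 0 were called on either side by this count, 2 being higher in Quad and 4 in Sol by a single peak. In the TCA cycle, 31 peaks were found in both, and in fatty acid uptake and oxidation 55 and 52, where 21 of 30 genes had equal numbers. The fatty acid transporter gene Cd36 had 3 peaks in Quad and 5 in Sol, and Dgat2, an enzyme of triglyceride synthesis, had 1 and 4. Plin4, which coats lipid droplets, had 3 and 0.

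Regulators of the oxidative programme differed gene by gene. Ppargc1a, the coactivator PGC-1α that drives mitochondrial biogenesis, had 2 peaks in Quad and 6 in Sol. Its promoter ranked at 28.0 in Sol and met a Quad peak below the 20000. Its partner Esrrg, the oestrogen-related receptor gamma gene, also had 2 and 6, and 1 of its intron regions, picked after its values were seen, ranked at 1.02 in Quad (0 to 35.1) and 65.1 in Sol (48.6 to 77.2). Prkag3, the AMP kinase subunit of fast muscle, had 4 and 1. In this list of PGC-1, ERR and PPAR regulators, 6 genes were higher in Quad and 7 in Sol, and 2 and 4 were called. In the calcineurin and NFAT list, 3 were higher in Quad and 5 in Sol, with 1 and 4 called, including Homer2 (1 and 5) and Rcan2 (2 and 6). The thyroid hormone receptor gene Thrb had 1 and 6.

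Lists named for the fast and slow programmes were mixed. That each member acts in the programme its list is named for was not tested. The list named for the fast programme had 54 peaks in Quad and 51 in Sol, with 4 and 3 called. Its members Maf (8 and 2) and Vgll2 (3 and 10) lay at opposite ends. The list named for the slow programme had 57 and 49, with 4 called towards Quad, among them Vgll4 and Tead1 (11 and 6). Called towards Sol were 2, Epas1 (4 and 7) and Hif1a (3 and 6), which encode hypoxia-inducible factors. Among myogenic regulators, 9 were higher in Quad and 6 in Sol, with Mef2a at 9 and 6 peaks and the E-protein gene Tcf12 at 2 and 6. Mstn, which encodes the growth inhibitor myostatin, had 2 peaks in Quad and none in the Sol 20000. In the atrophy list, 10 of 22 were higher in Quad and 5 in Sol, with 5 and 1 called, such as Foxo6 (8 and 3), Ddit4 (8 and 5) and Trim63, the ubiquitin ligase MuRF1 (3 and 1). The shares called among all genes with 6 to 9 peaks were 16.9% and 17.6%. Hox and hindlimb position genes were even (27 and 26 peaks). Of these, Pitx1, a hindlimb regulator, had an intergenic region 19488 bp upstream, picked after its values were seen, at 64.0 in Quad (45.5 to 77.1) and 12.7 in Sol (0 to 37.5).

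Some differences involved genes of other cell types in muscle. Of 30 collagen and matrix genes with a peak, 17 had more in Quad and 7 in Sol, with 77 and 51 peaks and 8 and 2 called. Among all genes with 4 or 5 peaks, 9.84% and 9.90% were called. The inhibitor of matrix proteases Timp3 (11 and 6), the basement membrane collagen gene Col4a2 (10 and 6), the aggrecanase gene Adamts5 (5 and 1) and Col1a2 (3 and 0) were among those higher in Quad, and elastin (Eln, 2 and 4) was higher in Sol. Their 35 shared regions had a median of −1.43 points. Of 5 defining fibroblast markers, 1 had a peak in the 20000 of each muscle, with 2 peaks in both, and Pdgfra, Col3a1, Dcn and Lum were at 0 in both. The whole lists held 12 peaks in Quad and 5 in Sol at these markers, including 5 and 0 at Col3a1.

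Endothelial genes had 76 peaks in Quad and 86 in Sol, with 7 and 10 of 30 genes higher and 2 and 5 called, close to the shares of genes with several peaks given above. The receptor gene Kdr had 3 and 8 peaks, which became 11 and 12 in the whole lists, and the co-receptor gene Eng had 2 and 0. The 61 shared regions had a median of −7.41 points, with 2 called towards Quad and 11 towards Sol, beside 8.58% and 15.5% of shared regions outside promoters. Of 6 defining endothelial markers, 5 had a peak in the Quad 20000 and 6 in the Sol 20000, with 14 and 21 peaks in sum, but the whole lists held 34 and 33 peaks at them. The share of these cells in each muscle was not measured, and its part in the results was not tested. Skeletal muscle markers had assigned peaks in both libraries (7 of 10 in Quad and 9 of 10 in Sol), with Myh7, Tnni1 and Myl2 at 0 in the Quad 20000 and Myh4 at 0 in the Sol 20000. None of the 20000 peaks of either muscle lay at the 3 erythroid markers, and the whole lists held 1 each.

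**Figure D5:**
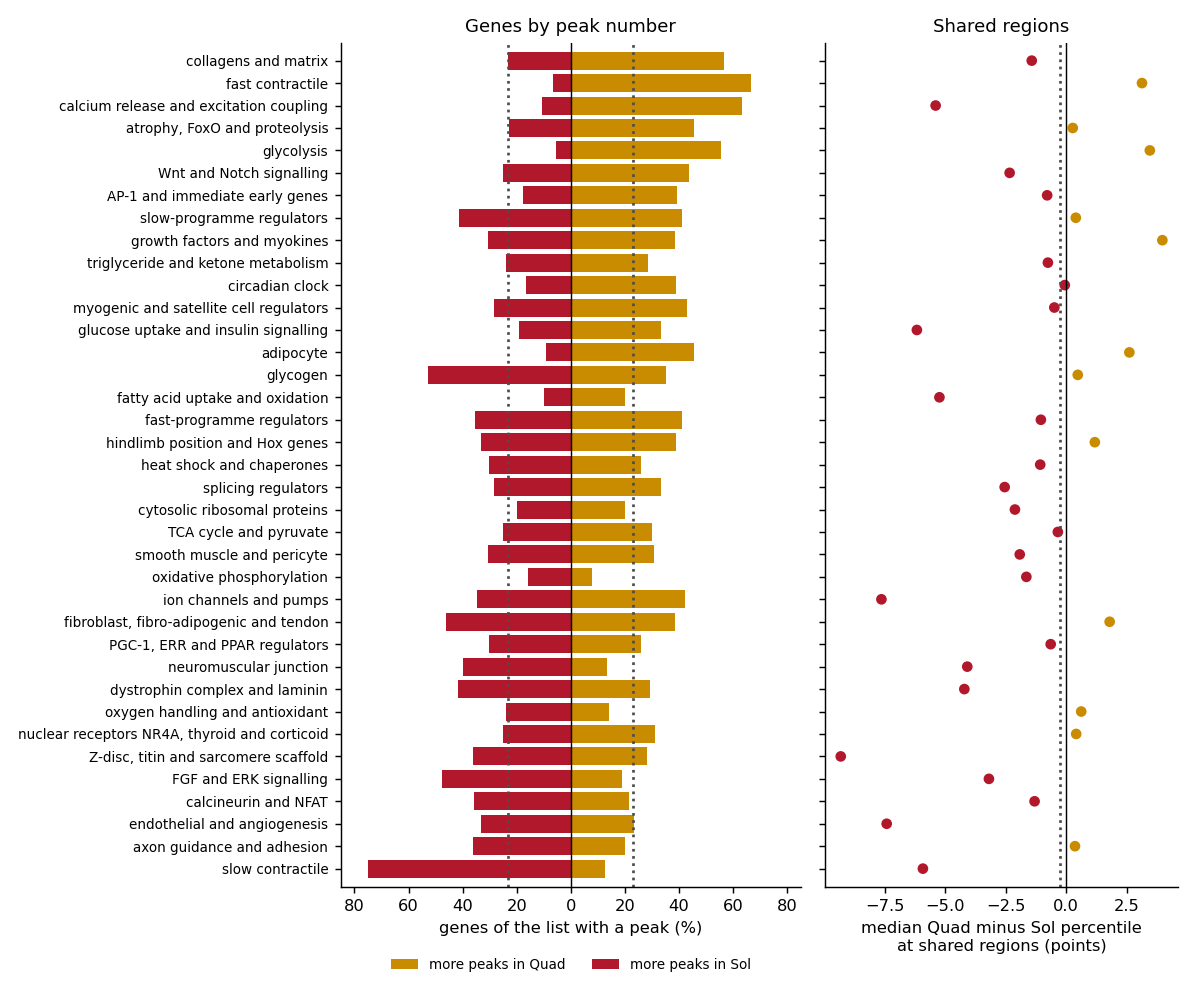
Left, percent of genes with a peak that had more peaks in Quad (ochre, right) or Sol (red, left) in 37 gene lists, sorted by the difference in peak number, with dotted lines for all genes. Right, median Quad minus Sol percentile at the shared regions of each list; fast contractile genes lay at 3.13 points, slow contractile genes at −5.92 and all regions at −0.27.

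Immediate early genes, which respond within minutes to activity and stress, had 107 peaks in Quad and 98 in Sol. Of 28 with a peak, 11 were higher in Quad and 5 in Sol, with 7 and 2 called, beside 16.9% and 17.6% of all genes with 6 to 9 peaks. The mRNA decay factor gene Zfp36 had 3 and 0 and Fos had 6 and 9. Wnt and Notch genes had 67 and 57, with 14 higher in Quad and 8 in Sol, led by the Wnt inhibitor gene Dkk3 (5 and 1), but of 33 shared regions 10 were called towards Sol and 1 towards Quad, beside 9.35% and 6.38% of all shared regions and 15.5% and 8.58% of those outside promoters. Axon guidance and adhesion genes had 53 and 65, with Cdh13 (T-cadherin, 3 and 9) the largest difference.

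Peaks with no peak of the other whole list within 1000 bp were the most separate regions. There were 3263 in Quad and 1677 in Sol, with median percentiles of 25.4 and 20.6, so most were weak. Promoters among them numbered 409 in Quad (4.74% of its promoter peaks) and 85 in Sol (1.02%), and the Sol list, against which Quad peaks were set, was the shorter of the pair.

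The highest of these peaks in Quad was the printed Nctc1 region at percentile 95.5, in intron 2 of a non-coding transcript near the imprinted Igf2 and H19 genes, 5215 bp from the nearest Sol peak. Next was a peak near Mir101c (92.7), at chr9:3030087-3030275, where the part of repeat-derived reads was not tested. It was followed by the promoters of Trip10, Junb (an AP-1 subunit) and Plec (the cytolinker plectin), all between 91.6 and 91.9. A peak assigned to Tnfaip2 in the last exon of Exoc3l4 (90.4) came after these promoters. Other such promoters, picked after their values were seen, were Acta1, skeletal alpha-actin (86.2), Dusp1 (85.03), Tcap, the titin cap protein (73.5), and Vegfa (64.8). Acta1 had 2 peaks in each list by nearest gene, but the nearest Sol peak lay 9669 bp from this promoter peak.

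In Sol the highest was an intergenic peak near Msl1 (93.9), followed by intron 1 of Fhl3 (90.2), intron 1 of Actn2 (86.9), a peak near Tob1 (86.7), intron 2 of Caskin2 (86.7) and intron 1 of Synpo, which encodes synaptopodin (86.2). At Fhl3 and Caskin2 each muscle had its own peak. Quad had the promoter of Fhl3 (76.4) and Sol the intron peak 3545 bp away, and Quad had the promoter of Caskin2 (80.4) and Sol the intron peak 4408 bp away. Sol promoters of this kind, picked after their values were seen, included Mb, the oxygen carrier myoglobin (84.5), Myoz2 (64.4), the fatty acid activating enzyme gene Acsl1 (60.7), Myom3 (57.5), Tpm3 (slow tropomyosin, 40.4) and Plin5 (33.3).

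Differences also gathered in stretches of the genome. Among 2004 windows of 1 Mb with a peak, 453 had equal numbers, 125 had at least 5 more in Quad and 97 at least 5 more in Sol. The largest excess in Quad was on chromosome 7 between 112 and 113 Mb, with 36 and 18 peaks, where Tead1 (11 and 6), Dkk3 (5 and 1) and Micalcl (4 and 0) lie. A window on chromosome 2 (64 and 49) and others on chromosomes 8 (42 and 28) and 15 (38 and 24), the last with Pvalb, came next. In Sol the largest excess was on chromosome 18, with 19 and 33 peaks, at Gm5820, the FGF feedback inhibitor gene Spry4 (4 and 7) and Fgf1 (2 and 4), and then on chromosome 17 at Epas1 (11 and 24). Windows on chromosomes 13 (15 and 27) and 14 (8 and 20) came next. Whole chromosomes differed less, from 1609 and 1497 peaks on chromosome 2 to 736 and 814 on chromosome 13.

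Motifs were counted in windows of 200 bp outside promoters, with flanks 2000 bp away as background. TGGAAA, the core of NFAT sites, was found in 17.7% (95% Wilson interval 16.5% to 19.0%) of 3757 Quad peaks without a Sol peak and in 23.2% (21.6% to 24.99%) of 2362 Sol peaks without a Quad peak. At shared regions called towards Quad and Sol the shares were 17.7% (14.8% to 21.0%) and 22.8% (20.4% to 25.5%). All peaks gave 19.2% in Quad and 20.8% in Sol, and their flanks 16.8% and 16.7%. CATTCC, the TEAD core, was found in 12.1% and 16.0% of unshared peaks, and the flanks of these peaks also differed, at 9.02% and 10.8%. At called shared regions the shares were 12.3% and 15.8%, with flanks of 10.6% and 9.32%.

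The MEF2 motif was found in 4.79% (4.15% to 5.52%) of the unshared Quad peaks and 6.60% (5.67% to 7.68%) of the unshared Sol peaks, and at 1.67% and 1.61% of the flanks of all peaks. CAGCTG, the E-box, was about equal in the unshared peaks, with 23.4% (22.1% to 24.8%) and 24.3% (22.7% to 26.1%). The flanks of these peaks stood lower, at 10.9% and 9.70%. GC content averaged 54.5% in the unshared Quad windows and 53.1% in the Sol windows. Among windows of 50% to 55% GC, NFAT matches stood at 18.2% and 24.2% of unshared peaks, with flanks of 16.96% and 15.2%. TEAD matches stood at 13.9% and 17.3%, and their flanks, at 8.40% and 11.4%, differed by about as much. MEF2 matches stood at 4.24% (3.28% to 5.46%) and 4.77% (3.56% to 6.37%). These intervals cover counting error of windows only.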

How the data were processed

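ATAC-seq libraries of Quad and Sol, 1 each, were analysed here. According to the submitters' processing notes and the study's methods, the authors aligned paired reads to mm10 with Bowtie2 at default settings, kept 1 tag per start position, called peaks of fixed width with HOMER and annotated each to the nearest start site. The deposited Peak Score is the authors' own score, a tag count scaled by library size. Read totals were not used here, and depth was inferred from the smallest step between scores. Peaks were 188 bp wide in Quad and 206 bp in Sol, and each list was cut at its own threshold, so a missing peak means only that none was called. No removal of repeat-derived reads and no Tn5 offset is given in the sources used here.

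Peaks were compared in Python 3.11.15 with pandas 2.3.3, numpy and scipy. The 20000 highest scores of each list were kept, ties at the limit (511 peaks in Quad and 389 in Sol) being broken by position. Shared regions held a peak of each list overlapping by 1 bp or more, and at 216 of them the authors' gene names differed. Sequence and motif matches came from GRCm38.p6, where no peak ran past a chromosome end. Scripts were tested on simulated data. Genes were named as the 15 largest differences in peak number each way, the 10 distal and 6 promoter regions with the largest shift each way, the 6 highest separate peaks of each muscle, list members with the largest difference and the 3 most unequal windows each way (ties kept). The members and the 41 gene lists were chosen with earlier results of these data known. A few genes, 1 region, 1 window and 1 gene list that this rule names are not reported here. Alternatives are given in the closing section.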

Additional observations from a re-analysis of the deposited data

How the results depend on the processing

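Sharing moved with the number of peaks and the overlap asked for. It was 75.3% of both lists with 10000 peaks each, 68.5% with 25000, 60.8% when 50% reciprocal overlap was required, and 75.3% of Quad and 74.6% of Sol peaks when centres within 500 bp counted. Spearman's rho was 0.836 with 10000 peaks, 0.830 with 25000 and 0.829 with 50% reciprocal overlap. With 10000 peaks, 180 genes were called towards Quad and 208 towards Sol, of which 91 and 90 were among those called with 20000, and 547 and 588 of 7530 shared regions were called towards Quad and Sol. With percentiles of the whole lists 38 shared regions were called towards Sol, beside 1162 towards Quad, which follows from the unequal length of the lists. Of 44 values under other settings, 28 stayed within 1.5 times the main count or within the 95% interval of the main share or correlation, and 16 moved. With 25000 peaks, 948 and 871 genes and 933 and 1651 shared regions were called towards Quad and Sol. The 28 also included limiting the lists to autosomes and X, windows of 200 bp, peaks within 50 kb of a start site (545 and 438 genes), promoters left out (561 and 616 genes) and, chosen after seeing the data, shared regions given 1 gene name (660 and 654 genes). No paired analysis was possible because each muscle had 1 library. Depth limits the low-ranked regions most, since a peak at the limit held 52 to 58 inferred tags and its percentile interval reached 0. No error was estimated for peak numbers by nearest gene, and the gene of a distal region was not tested.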

Other observations

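Several gene groups not described above had similar peak numbers in both muscles. Splicing regulators had 73 peaks in each list, with 3 genes called on each side, among them Khdrbs3 (0 in Quad and 3 in Sol) and Rbfox1 (6 and 3). Cytosolic ribosomal protein genes had 40 peaks in each list, and 18 of 30 had equal numbers. Heat shock and chaperone genes had 36 peaks in Quad and 35 in Sol. Clock genes had 47 and 41, with the core activator Arntl at 1 and 4 and the output factor Hlf at 5 and 1. Genes of the neuromuscular junction had 20 and 23, with Ache, which encodes acetylcholinesterase, at 2 and 0, and the dystrophin complex and laminin genes had 68 and 71.

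Genes of the FGF and ERK pathway had 48 peaks in Quad and 54 in Sol, with 4 genes higher in Quad and 10 in Sol. The growth factor and myokine list had 53 and 46, and its activin receptor gene Acvr2a had 7 and 2 while the BMP receptor gene Bmpr1b had 0 and 3. Glucose uptake and insulin signalling genes had 66 and 62, including the Rab GTPase activating genes Tbc1d1 (12 and 9) and Tbc1d4 (5 and 8). Lists of other cell types had 33 peaks in Quad and 35 in Sol at fibroblast and tendon genes, 23 and 24 at smooth muscle genes, 28 and 24 at adipocyte genes, 14 and 13 at macrophage genes, 8 and 13 at Schwann cell genes and 1 and 1 at erythroid genes. Oxygen handling genes had 40 and 45 peaks, nuclear receptor genes of the NR4A, thyroid and corticoid groups 53 and 59, and triglyceride and ketone genes 44 and 38.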
